A study of Mus musculus with 6 samples.

Results

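The data cover 10 neuropeptide genes in cultured mouse cortical neurons, 10 of the 54232 genes listed for each library, taken by symbol (Sst, Npy, Cck, Vip, Tac1, Penk, Pdyn, Crh, Adcyap1 and Nts) with no threshold on a measured value. RNA was sequenced from 6 libraries of wild-type CD1 cortical neurons, 2 in each of 3 groups, each group having a repeat 1 and a repeat 2. The control libraries carry PDL in their names, the PA libraries carry IKVAV (a peptide sequence from laminin), and the PA + PS2 libraries carry IKVAV plus PEDOT-S OH, where PEDOT is a conducting polymer; PA stands for peptide amphiphile, and the labels do not spell out PS2. The treatment label reads the same for all 6 libraries, the control included, and no age, culture time or dose is stated there. The study's title names conductive scaffolds and neuronal maturation.

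Neuropeptides are cut from larger precursor proteins by prohormone convertases, stored in dense-core vesicles and released during sustained firing, after which they act on G protein-coupled receptors. In the cortex several of them (somatostatin, neuropeptide Y, VIP) are made by GABA-releasing interneurons, and neuropeptide Y by several classes of these. Transcription of many precursor genes is known to respond to cyclic AMP and calcium through the factor CREB, which binds the cyclic AMP response element (CRE), and the somatostatin gene is the textbook case.

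The promoter letters are shown first, and whether CREB acts on these genes was not measured. RefSeq windows (GRCm38.p6, 250 bases before to 50 after the annotated start, both strands searched) were found for 8 of the 10 genes, all but Penk and Crh, with 2 windows each for Pdyn and Adcyap1; a gene is counted where any of its windows holds the letters. The palindrome TGACGTCA, the full CRE, was found in 1 of 8 genes, Sst, and in 2.03% of all 27025 genes with windows of this length (1.79% of 32851 windows). The shorter CRE core CGTCA, which also lies inside the full CRE, was found in 6 of 8 genes (Sst, Vip, Cck, Tac1, Adcyap1 and Nts) and in 23.0% of all genes (20.8% of windows). The AP-1 site TGACTCA was found in 1 of 8 genes (Nts) and in 5.95% of all genes (5.2% of windows). The stretches below, 30 bases each and written 5′ to 3′ on the strand of the gene, show how the Sst element compares with the shorter matches of the others; capitals mark the match, and TGACG is CGTCA read on the other strand.
Sst (chr16:23890874-23890903, minus strand): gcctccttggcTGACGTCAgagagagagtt
Vip (chr10:5639127-5639156, plus strand): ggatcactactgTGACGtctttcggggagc
Cck (chr9:121495724-121495753, minus strand): cctgctggactgCGTCAgcactgggtaaac
Tac1 (chr6:7555006-7555035, plus strand): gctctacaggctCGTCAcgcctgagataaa
Adcyap1 (chr17:93198914-93198943, plus strand): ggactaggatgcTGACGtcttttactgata
Nts (chr10:102490567-102490596, minus strand): attagggaagatCGTCActttccatcaagg
The matches shown began 48 (Sst), 79 (Vip), 47 (Cck), 43 (Tac1), 91 (Adcyap1) and 166 (Nts) bases before the RefSeq start. Tac1 has a second match at -197, not shown, and the Adcyap1 match lies at -242 from the other RefSeq start of that gene. The Sst and Tac1 stretches overlap an exon of their own gene in GENCODE M21, whose gene models start further upstream there. The other 4 lie outside the exons of their own gene, and exons of other genes were not checked. These are letter matches, and binding was not measured.

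Library totals ran from 30714311 to 33923681 counts, so that 1 CPM (a count scaled to library size) stands for 30.7 to 33.9 counts before TMM scaling. The CPM given here are TMM-scaled, with factors of 0.99 to 1.009. Mitochondrial genes took 1.20% to 1.94% of counts. All 10 genes passed the filter on low counts, which left 17299 genes for testing. Pan-neuronal markers summed to 8058 to 8743 CPM over the 6 libraries, excitatory markers to 1891 to 2223 and GABA interneuron markers to 2401 to 2739. Astrocyte markers summed to 214 to 452 CPM and progenitor and cycling markers to 217 to 494, so the libraries held neuronal RNA with some RNA of other cells. Nothing in the labels ties repeats to separate cultures or animals, and the p-values therefore cover only the spread between these libraries, which may be technical. In bulk RNA, fewer cells of a type and less RNA per cell cannot be told apart.

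Levels per length spanned more than 3 orders of magnitude. Sst led with a mean of 285 CPM per kb of merged exon (263 to 368 over the 6 libraries), above 99.7% of tested genes. Npy followed at 32.3 (27.9 to 39.5) and Cck at 18.0, and no library of one of these 3 genes overlapped the next. Adcyap1 (8.36 CPM per kb), Penk (4.99), Crh (3.31) and Nts (1.81) came next, with ranges that overlapped between each neighbouring pair. Tac1 (0.619), Pdyn (0.602) and Vip (0.122) closed the order, where Tac1 and Pdyn could not be ranked beyond their spread and the highest Vip libraries overlapped the lowest of Pdyn. Sst alone made up 65.2% to 73.0% of the summed CPM of the 10 genes. Between its highest and lowest library a gene differed most for Crh (9.70-fold) and Pdyn (8.62-fold) and least for Cck (1.35-fold), so the most abundant peptides were also among the steadiest.

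**Figure D1:**
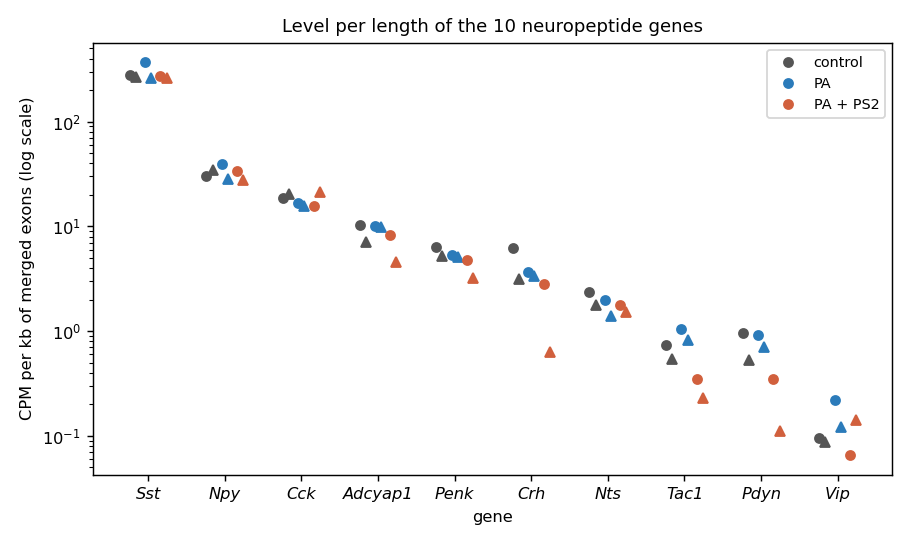
Level of each neuropeptide gene in CPM per kb of merged exons (log axis), 1 point per library, circles for repeat 1 and triangles for repeat 2. Sst stands above all others at 263 to 368, and the lowest points of Crh and Pdyn are those of PA + PS2 repeat 2.

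The question of each comparison is what PA did, what PA with PS2 did, and what PS2 added to PA. Between PA + PS2 and PA, Tac1 and Pdyn had the lowest log2 fold changes of the 10, -1.68 and -1.80. Sst, Npy and Cck lay between -0.24 and 0.18. By edgeR's quasi-likelihood test with Benjamini-Hochberg adjustment over all 17299 genes, 0 genes and 0 members passed 0.05 in any of the 3 group comparisons (background 0.0%). At an unadjusted p under 0.05 the counts were 138, 1179 and 1314 genes for PA versus control, PA + PS2 versus control and PA + PS2 versus PA, which is 0.798%, 6.82% and 7.6% of all genes, and 0, 4 and 2 of them were members. DESeq2 without the repeat number called 0, 130 and 200 genes (0.0%, 0.751% and 1.16%), among them 0, 0 and 1 members (Tac1). With the repeat number as a block, edgeR called 0 genes for PA versus control (323 at an unadjusted p under 0.05), 117 for PA + PS2 versus control (0 members against a background of 0.676%) and 280 for PA + PS2 versus PA (2 of 10 members, Tac1 and Pdyn, against 1.62%). The comparisons with PA + PS2 share its 2 libraries, so their values are given side by side and are not independent.

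**Figure D2:**
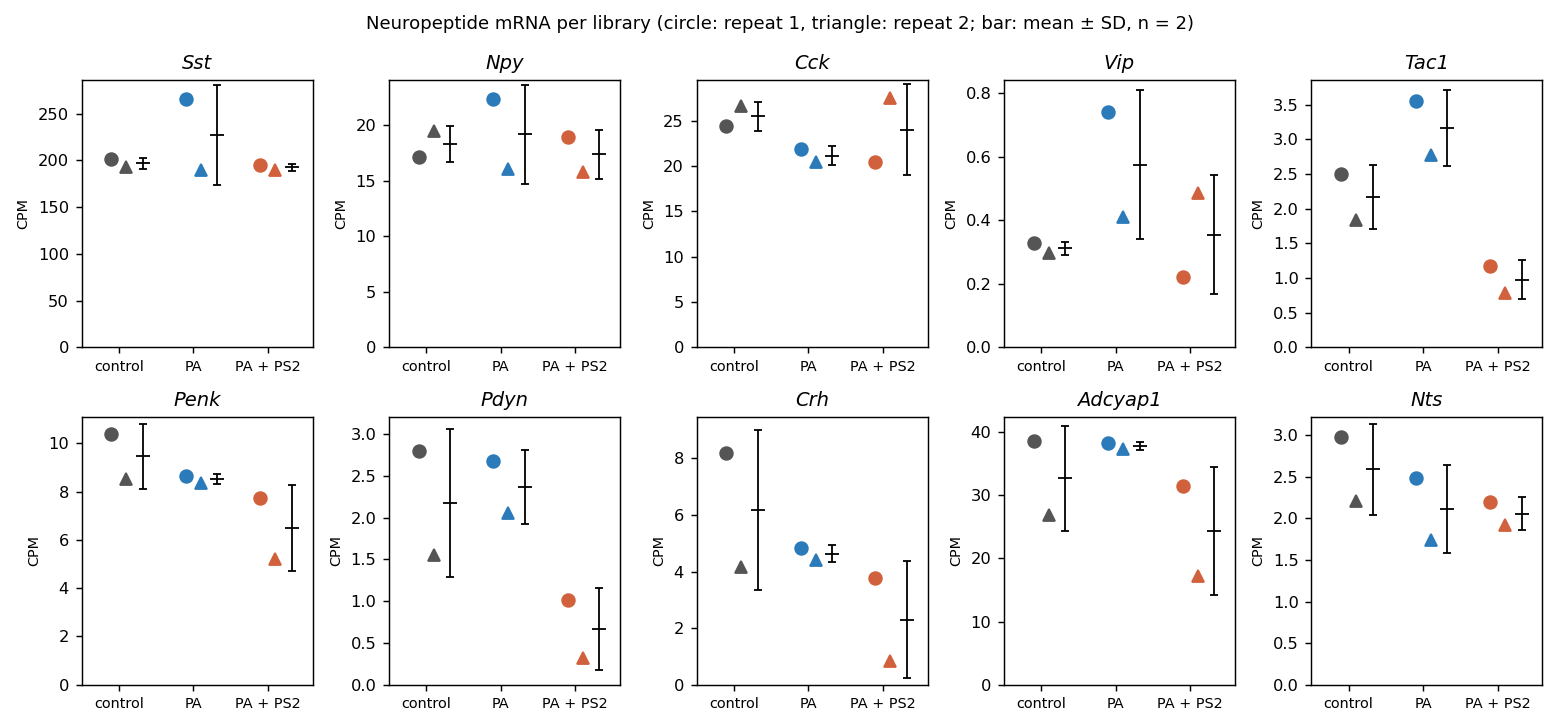
CPM of each gene in every library (axes from 0), circles for repeat 1 and triangles for repeat 2, with the mean ± SD of n = 2 beside them. The PA + PS2 points of Tac1, Pdyn, Penk and Crh lie below all control and PA points, whereas those of Sst and Npy overlap the control.

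Sst encodes somatostatin, an inhibitory peptide of dendrite-targeting interneurons (chr16:23889573-23890958, minus strand, GRCm38). It read 201 and 193 CPM (control), 265 and 189 (PA), and 195 and 190 (PA + PS2) (repeat 1, then repeat 2). Only PA repeat 1 stood apart, and the groups overlapped. The log2 fold change of PA + PS2 versus control was -0.03 (SE 0.144, adjusted p = 0.998, edgeR), and of PA versus control 0.20 (SE 0.144).

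Npy encodes neuropeptide Y, which damps transmitter release and is made by several interneuron classes (chr6:49822710-49829507, plus strand). Its levels were 17.2 and 19.5 CPM (control), 22.3 and 16.0 (PA), and 19.0 and 15.8 (PA + PS2). Values of the 3 groups were intermixed, and the 2 PA libraries spanned the whole range but for the lowest value. The log2 fold changes were 0.06 (PA versus control), -0.08 (PA + PS2 versus control) and -0.14 (PA + PS2 versus PA), with SEs of 0.182 to 0.185.

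Cck encodes cholecystokinin, made by a basket-cell class and by many pyramidal cells (chr9:121489824-121495694, minus strand). It stood at 24.4 and 26.6 CPM (control), 21.9 and 20.4 (PA), and 20.5 and 27.5 (PA + PS2). Both PA libraries lay below both control libraries, with a log2 fold change of -0.27 (SE 0.156, adjusted p = 1.00, edgeR), while the 2 PA + PS2 libraries lay far apart, one near PA and one above the control. Vip, whose peptide marks interneurons that inhibit other interneurons (chr10:5639218-5647617, plus strand), was near the limit of detection, with 7 to 23 counts in a library. Its levels were 0.328 and 0.298 CPM (control), 0.742 and 0.410 (PA), and 0.223 and 0.487 (PA + PS2), and the SE of its log2 fold changes was 0.609 to 0.692.

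Tac1, the precursor of substance P and neurokinin A (chr6:7554879-7565834, plus strand), gave the clearest ordering. It read 2.50 and 1.85 CPM (control), 3.55 and 2.78 (PA), and 1.18 and 0.779 (PA + PS2). The 3 groups did not overlap: PA was highest and PA + PS2 lowest in both repeats. Means were 2.17 ± 0.463, 3.16 ± 0.547 and 0.979 ± 0.282 CPM (SD, n = 2). For PA + PS2 versus PA the log2 fold change was -1.68 (SE 0.377, edgeR adjusted p = 0.391), and -1.69 (SE 0.322, adjusted p = 0.0234) with the repeat block; DESeq2 gave adjusted p = 0.0211 without the block. With the block and only the PA and PA + PS2 libraries in the fit, edgeR's adjusted p was 0.0589. With the block and 1 library left out, Tac1 stayed past the threshold without PA 1 (adjusted p = 0.0406) and missed it without control 1 (0.0665), control 2 (0.0807), PA 2 (0.111), PA + PS2 1 (0.0671) or PA + PS2 2 (0.431). Against the control the fold change was -1.14 (SE 0.403, adjusted p = 0.674; 0.173 with the block, edgeR).

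Of the opioid precursors, Pdyn (dynorphins, ligands of the kappa receptor; chr2:129686565-129699844, minus strand) was at 2.80 and 1.55 CPM (control), 2.68 and 2.05 (PA), and 1.02 and 0.325 (PA + PS2). The last 2 values rest on 32 and 10 counts, and both lie under every control and PA value. The log2 fold change of PA + PS2 versus PA was -1.80 (SE 0.545, edgeR adjusted p = 0.488), and -1.82 (SE 0.404, adjusted p = 0.0471) with the block. That call was lost with the block and RLE size factors (adjusted p = 0.0518) and with the block and only the PA and PA + PS2 libraries (0.0960), and among the fits that left out 1 library it was kept without PA 1 (0.0312) and lost without any of the other 5 (0.0631 to 0.580). Versus control the value was -1.68 (SE 0.549, adjusted p = 0.644; 0.0925 with the block, edgeR). Penk (enkephalins; chr4:4133531-4138819, minus strand) read 10.4 and 8.51 CPM (control), 8.65 and 8.36 (PA), and 7.74 and 5.23 (PA + PS2). Both PA + PS2 values were the lowest, by a smaller margin, with a log2 fold change versus control of -0.54 (SE 0.225, adjusted p = 0.715; 0.222 with the block, edgeR). An antisense gene, A830012C17Rik, overlaps 233 exonic bases of Penk but held at most 7 counts in a library.

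Crh encodes corticotropin-releasing hormone, a stress peptide also found in cortical interneurons (chr3:19693401-19695396, minus strand). It stood at 8.19 and 4.17 CPM (control), 4.84 and 4.42 (PA), and 3.76 and 0.844 (PA + PS2). Control repeat 1 was the highest library and PA + PS2 repeat 2 the lowest, so the spread within both groups was wide. The log2 fold change of PA + PS2 versus control was -1.42 (SE 0.566, adjusted p = 0.715, edgeR) and -0.72 without PA + PS2 repeat 2. With the block the adjusted p was 0.0978 in edgeR and 0.0125 in DESeq2, which called 1.61% of all genes there.

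Adcyap1 encodes PACAP, a peptide that raises cyclic AMP in target neurons (chr17:93199017-93206537, plus strand). It read 38.6 and 26.8 CPM (control), 38.2 and 37.3 (PA), and 31.4 and 17.2 (PA + PS2). PA + PS2 lay below PA in both repeats but straddled the lower control library. Versus PA the log2 fold change was -0.63 (SE 0.293, adjusted p = 0.708), with the block -0.68 (adjusted p = 0.107, edgeR) or, in DESeq2 with the block, adjusted p = 0.00844 (2.1% of all genes called). Nts, the precursor of neurotensin (chr10:102481756-102490486, minus strand), was at 2.98 and 2.20 CPM (control), 2.49 and 1.74 (PA), and 2.20 and 1.92 (PA + PS2). Its PA + PS2 values were under both control values, by as little as 2.198 against 2.203 CPM, with a log2 fold change of -0.33 (SE 0.328, adjusted p = 0.941, edgeR).

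Within repeats, 7 of the 10 genes were lower in PA + PS2 than in the control in both pairs (Tac1, Penk, Pdyn, Crh, Adcyap1, Nts and Sst, the last at -0.04 and -0.03 on the log2 scale), against 28.0% of all tested genes. Groups did not overlap for 5 of them (Tac1, Penk, Pdyn, Crh and Nts), against a background of 17.1%. In Crh the difference was -1.11 in repeat 1 and -2.22 in repeat 2, and in Pdyn -1.40 and -2.06; for Tac1 both repeats gave nearly the same value, -1.05 and -1.18. Against PA, 6 of 10 were lower in both pairs (background 27.7%), among them Npy at -0.24 and -0.02, and 5 did not overlap (Tac1, Penk, Pdyn, Crh and Adcyap1; 18.4%). Between PA and the control, 3 were lower (Cck, Penk and Nts; 20.5%) and 2 higher (Tac1 and Vip; 24.4%) in both pairs. No member was higher in both pairs with PA + PS2, beside 29.7% of all genes versus control and 26.8% versus PA. The median log2 fold change of the 10 was -0.38 versus control and -0.51 versus PA, beside 0.009 and 0.005 for all tested genes.

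**Figure D3:**
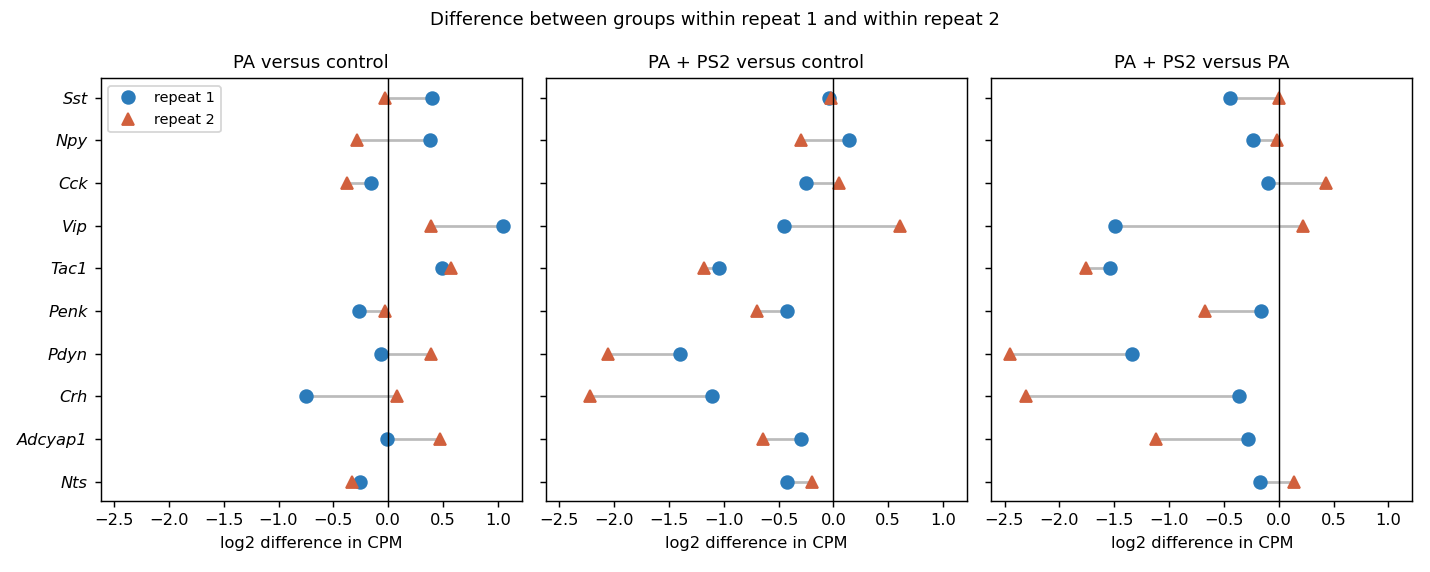
Log2 difference in CPM between 2 groups, computed inside repeat 1 (circles) and inside repeat 2 (triangles) for each gene. Tac1, Pdyn, Crh and Penk lie left of 0 in both repeats for both comparisons with PA + PS2, and Pdyn reaches -2.45 against PA in repeat 2.

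The repeats themselves differed. Going from repeat 1 to repeat 2, 7 members were lower in all 3 groups (Sst, Tac1, Penk, Pdyn, Crh, Adcyap1 and Nts; background 19.9%). In the model with group and repeat, edgeR called 901 of 17299 genes between repeats (5.21%) and 0 members. Crh came nearest at -0.85 (SE 0.268, adjusted p = 0.106), then Adcyap1 at -0.45 (adjusted p = 0.111); DESeq2 called both of these, with 752 genes in all (4.35%). The summed levels of astrocyte and of progenitor markers were higher in repeat 2 in every group, though not those of each marker (astrocyte sums of 229 then 308, 249 then 452, and 214 then 264 CPM in control, PA and PA + PS2), and their part in the result was not tested.

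Markers of other cells also differed between the groups. The 10 progenitor and cycling markers, all detected in every group, summed to 217 and 238 CPM in PA + PS2 against 286 and 450 in the control and 332 and 494 in PA. With the block 3 of 10 fell versus control (Nes, Cdk1 and Ccnb1), where 0.676% of all genes were called in either direction. Versus PA 5 of 10 fell, with Top2a and Vim added (1.62% of all genes called). Of 10 astrocyte markers 0 passed versus control with the block, and 5 had an unadjusted p under 0.05, as did 2062 of all 17299 genes. Versus PA 5 fell (Aldoc, Sox9, Gja1, Aldh1l1 and Aqp4), beside 1.62% of all genes called. Vascular and meningeal markers (9 of 11 tested) summed to 91.6 and 40.7 CPM in PA + PS2, 130 and 152 in the control and 165 and 97.6 in PA. Striatal projection neurons are known for Penk, Tac1 and Pdyn, and their 10 other markers summed to 518 and 509 CPM in PA + PS2, 515 and 504 in the control and 543 and 456 in PA. GABA interneuron markers other than the peptides summed to 2486 and 2401 CPM in PA + PS2 against 2604 and 2615 in the control and 2739 and 2571 in PA. The part of these markers in the peptide values was not tested.

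Among 31 tested GABA interneuron genes the median log2 fold change was -0.04 versus control and -0.08 versus PA. Versus control 17 of them were below 0 and 14 above, and versus PA 18 and 13. With the block, Nos1 (neuronal nitric oxide synthase) rose in PA + PS2 (log2 0.54 versus control, adjusted p = 0.0183, and 0.60 versus PA, adjusted p = 0.0056, edgeR). Its levels were 87.6 and 76.2 CPM there, against 57.4 and 55.4 in the control and 56.6 and 51.6 in PA. Gad1, which makes GABA, fell versus PA by 0.30 (adjusted p = 0.0492, edgeR with the block). Pvalb, the mark of an interneuron class, held 0 to 2 counts in a library.

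Of the 18 genes for peptide processing and dense-core vesicles, 15 had a log2 fold change below 0 in each comparison with PA + PS2 (48.1% of all genes versus control and 48.9% versus PA), with medians of -0.10 and -0.12. Scg2 (secretogranin II, a vesicle cargo protein) read 382 and 328 CPM (control), 333 and 339 (PA), and 243 and 182 (PA + PS2). It fell with the block by 0.75 versus control (adjusted p = 0.00813) and 0.68 versus PA (adjusted p = 0.00581, edgeR). Chgb (chromogranin B) fell versus PA by 0.35 with the block (adjusted p = 0.0283, edgeR), at 181 and 172 CPM in PA + PS2 against 220 and 228. The convertase Pcsk1 was at 29.1 and 17.6 CPM in PA + PS2 against 43.0 and 35.8 in the control and did not pass (adjusted p = 0.464 with the block, edgeR), and Pcsk2 (73.9 and 57.3 against 68.2 and 69.9), Cpe and Pam did not pass in edgeR either. In DESeq2 with the block Pam passed versus control (log2 -0.42, adjusted p = 0.0100).

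Of 24 neuropeptide receptors 20 were tested, and 0 passed in edgeR with or without the block or in DESeq2. In edgeR 1 had an unadjusted p under 0.05 in each comparison with PA + PS2 without the block, and 2 and 3 with it. The medians were -0.07 versus control (11 below 0, 9 above) and -0.03 versus PA (10 and 10). The highest were Sort1 (a neurotensin-binding sorting receptor, 241 to 274 CPM), Adcyap1r1 (the PACAP receptor, 75.6 to 93.2), Npy1r (51.7 to 59.2), Ntsr1 (44.8 to 55.4) and Oprl1 (39.4 to 49.6). Oprl1 is the receptor of nociceptin, which comes from none of the 10 genes. Both PA + PS2 libraries were the highest for Oprl1 (47.6 and 49.6 CPM) and for Ntsr1 (55.4 and 51.7). Of the receptors for Tac1 and Pdyn peptides, Tacr1, the substance P receptor, was at 1.21 to 2.42 CPM and Oprk1, the dynorphin receptor, at 0.0637 to 0.327, while Tacr3, a tachykinin receptor that prefers the Tac2 product, was at 10.2 to 13.1. The somatostatin receptors Sstr1 (10.8 to 14.3 CPM) and Sstr2 (15.2 to 19.9) and the CRH receptor Crhr1 (8.99 to 14.1) were in between.

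Of 25 other peptide genes 14 were tested and 0 passed in edgeR with or without the block. Without it 4 and 6 had an unadjusted p under 0.05 versus control and versus PA (6.82% and 7.6% of all genes). Medians were -0.31 versus control and -0.58 versus PA, with 9 genes below 0 and 5 above in each. Some rest on few counts, such as Trh (1 to 12 in a library) and Tac2 (1 to 18). Grp read 2.59 and 3.24 CPM (control), 2.26 and 2.33 (PA), and 3.09 and 5.29 (PA + PS2). Pnoc (nociceptin) read 19.7 and 23.3 CPM (control), 20.9 and 20.2 (PA), and 15.6 and 11.3 (PA + PS2), with a log2 fold change versus control of -0.68 (adjusted p = 0.529; 0.0791 with the block, edgeR), and it passed in DESeq2 with the block (adjusted p = 0.0251). Nucb2 (nesfatin) was at 23.9 to 33.1 CPM, and Cartpt was at 9.76 and 6.40 CPM (control), 6.36 and 8.86 (PA), and 4.30 and 1.56 (PA + PS2). Oxt, Hcrt, Nmu and Nms had 0 counts in all 6 libraries.

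A list of 24 genes that respond to neuronal activity, many of them through CREB, was described beside the peptides. In PA + PS2 22 of 24 had a log2 fold change below 0 versus control, where 48.1% of all tested genes did, and 22 of 24 versus PA (48.9%), with medians of -0.48 and -0.44. With the block 2 passed versus control (Fosl2 and Rgs2; 0.676% of all genes) and 4 versus PA (Fos, Fosl2, Nr4a1 and Rgs2; 1.62%), all lower. In PA + PS2 the level of Fos was 44.6 and 34.6 CPM, against 63.5 and 60.9 in the control and 59.2 and 71.5 in PA (log2 -0.72 versus PA, adjusted p = 0.0251, edgeR with the block).

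**Figure D4:**
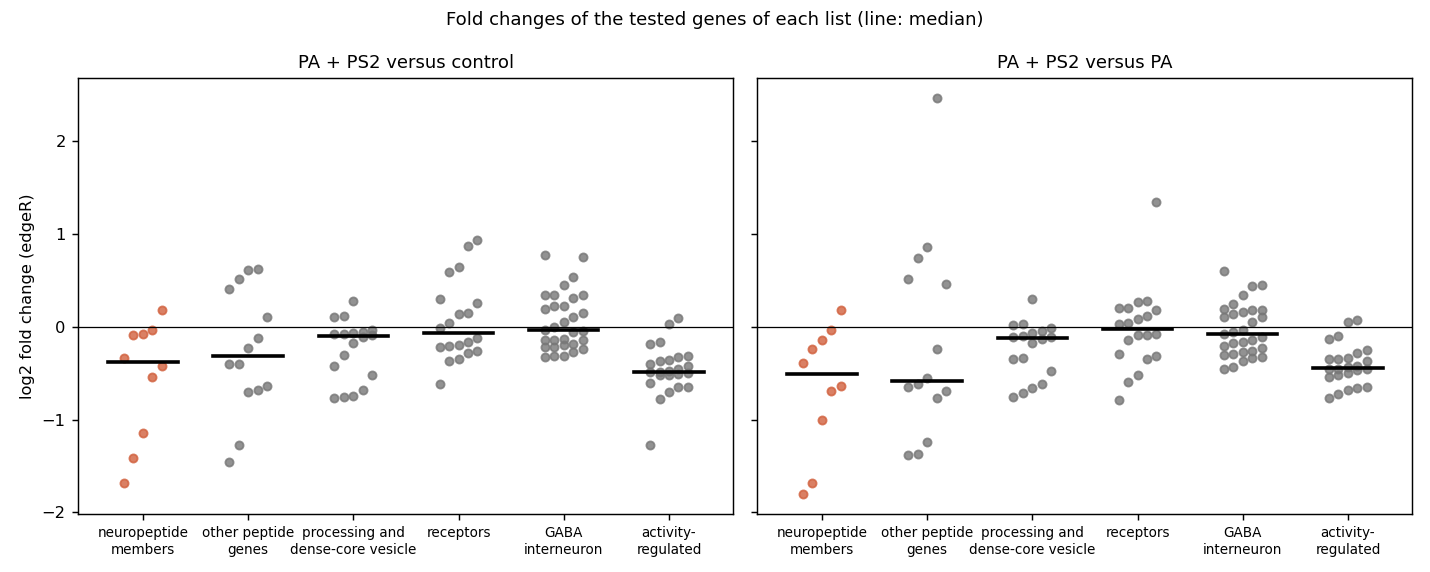
Log2 fold change (edgeR, no block) of every tested gene of 6 lists for PA + PS2 versus control and versus PA, 1 point per gene and a line at each median. The neuropeptide members reach -1.68 and -1.80 at their lowest, while receptors centre near 0 and the activity-regulated genes sit at medians of -0.48 and -0.44.

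For the 5 members with a mean of at least 5 CPM (Sst, Npy, Cck, Penk and Adcyap1), the 2 genes with the most similar pattern over the 6 libraries were taken from 10770 genes of at least that level. Scamp5 and Gaa were nearest to Adcyap1 (Pearson r 0.995 and 0.992 of log2 CPM, n = 6), Stx4a and Sv2c to Penk (0.995 and 0.994), Zfp142 and Fam173b to Sst (0.990 and 0.989), Baz2b and Lrrc24 to Npy (0.988 and 0.987), and Ufc1 and Mapk8 to Cck (0.975 and 0.970). Sv2c, a synaptic vesicle protein, spanned 24.0 to 58.0 CPM, whereas Scamp5 moved only from 372 to 392. The points share libraries and depth, and with so many genes searched a high r is a description only.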

How the data were processed

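Poly(A) RNA, per the molecule label, was sequenced from 6 libraries in 3 groups of 2; per the labels' protocols, RNA was purified on RNeasy micro columns and the TruSeq Total RNA kit was used. The authors deposited raw counts per Ensembl gene, 1 library per file. Tools listed in the submitters' processing notes are STAR 2.7.5, HTSeq 2.0.2, cutadapt 4.2 and DESeq2 1.14.1, with mm10 as the build. Settings, annotation release and strandedness were not given in the sources used here, and a gene with an antisense neighbour is therefore uncertain. The members, gene lists and tests were chosen with earlier results of these data known.

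Counts were scaled by TMM, filtered by group with filterByExpr and tested by robust quasi-likelihood in edgeR 4.0.16 (R 4.3.3), in 1 model of 6 libraries with 3 residual degrees of freedom, Benjamini-Hochberg adjustment over 17299 genes and a threshold of 0.05. Biological variation between libraries (BCV) came to 16.7%, or 9.57% with the repeat number as a block, which leaves 2 residual degrees of freedom. No label says what libraries of one repeat number share. Repeat differences correlated between groups at 0.346 (control and PA), 0.361 (control and PA + PS2) and 0.213 (PA and PA + PS2) over 17299 genes. The main model of the group comparisons was fitted without the repeat number. The block, which treats the numbers as pairing, was run as an alternative, and its values are named as such. The T number in the library names is shared by the repeat 1 libraries and differs among those of repeat 2. Log2 differences within a repeat used a prior count of 2. Lengths and coordinates came from GENCODE M21 on GRCm38, and promoter windows from RefSeq on GRCm38.p6. Scripts were tested on simulated data.

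Named genes were all members, the genes of each list past the threshold with or without the block (at most 6 per list and comparison), the receptors and processing enzymes, otherwise the 3 most abundant genes of a list, and the 2 genes most like each member of at least 5 CPM. Alternatives were RLE size factors, no filter, at least 50 counts in 2 libraries, DESeq2 1.42.0, the block, only the 2 groups compared, and leaving out each library. Legacy quasi-likelihood and further combinations with the block were added after seeing the data. The result of 1 marker list is not reported here.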

Additional observations from a re-analysis of the deposited data

How the results depend on the processing

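With no repeat block, edgeR under RLE size factors, either other filter, legacy quasi-likelihood or only the 2 groups compared called 0 genes and 0 members in each group comparison. DESeq2 without the block called 130 genes (0.751%) for PA + PS2 versus control and 200 (1.16%) versus PA, with 1 member in the latter. Pairing by the replicate block gave 117 genes (0.676%) for PA + PS2 versus control and 280 (1.62%) with 2 members versus PA. With RLE size factors these were 105 and 266 (1 member versus PA), and with legacy quasi-likelihood 121 and 263 (2 members), each of 17299 genes. With the block and only the 2 groups compared, 8 of 16812 genes were called for PA versus control. For PA + PS2 versus control 849 of 16750 genes were called, with 3 of 10 members (Crh, Pdyn and Adcyap1). Versus PA the call took in 153 of 16691 genes and 0 members. DESeq2 with the block called 1, 279 (1.61% of all genes, with 1 member, Crh) and 364 (2.1%, with 3 members) genes in the 3 comparisons. Why the fits differ was not tested. DESeq2 called 2 members between repeats (4.35% of all genes), and there the log2 value of Vip turned from -0.11 to 0.015.

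Leaving out each library in turn, with and without the block, gave 0 to 12 genes for PA versus control, 0 to 560 genes and 0 to 3 members for PA + PS2 versus control, 0 to 626 genes and 0 to 4 members for PA + PS2 versus PA, and 97 to 1164 genes and 0 to 2 members between repeats. The lone library of a group was then assumed to vary like the others. The members called for PA + PS2 versus PA changed with the library left out, as did the number of all genes called. With the block, log2 fold changes there ran from -1.802 to -1.605 (Tac1) and -2.51 to -1.49 (Pdyn). They ran from -2.129 to -0.579 for Crh, -1.009 to -0.357 for Adcyap1 and -0.432 to 0.001 for Sst. Between repeats 97 genes were called without control 2 and 115 without control 1. Signs turned for several members. Vip in PA + PS2 versus PA stood at log2 -0.69 with all libraries (edgeR, no block) and still turned in fits with the block and a library left out. For PA versus control the log2 fold changes then ran from -0.225 to 0.321 (Npy), -0.061 to 0.417 (Sst), -0.327 to 0.033 (Penk), -0.873 to 0.269 (Crh), -0.251 to 0.608 (Pdyn) and -0.097 to 0.558 (Adcyap1). For PA + PS2 versus control they ran from -0.357 to 0.195 (Npy), -0.155 to 0.073 (Sst), -0.743 to 0.945 (Vip) and -0.318 to 0.108 (Cck). Versus PA they ran from -0.354 to 0.120 (Npy), -0.455 to 0.027 (Sst), -1.613 to 0.085 (Vip), -0.047 to 0.390 (Cck) and -0.265 to 0.248 (Nts), and for Vip between repeats from -0.578 to 0.485. Tac1, Pdyn, Crh, Penk and Adcyap1 stayed below 0 in both comparisons with PA + PS2 under each alternative run. With 2 libraries a group, 10 and 32 counts of Pdyn in PA + PS2 and 7 to 23 counts of Vip in a library, small differences were not detectable.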

Other observations

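Markers of cell types that belong in none of the comparisons above were low. Of 8 microglia markers 5 were tested, and their sum was 3.03 to 5.30 CPM over the 6 libraries. Of 8 hypothalamic and thalamic markers 4 were tested, and their sum was 5.06 to 8.21 CPM, with 6.50 and 8.21 in PA + PS2.

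Some genes tied to the peptides by name or partner differed in level without passing any edgeR threshold. Cort, a relative of Sst that binds the same receptors, was at 6.88 and 5.83 CPM (control), 5.81 and 5.58 (PA), and 3.38 and 4.42 (PA + PS2) (log2 -0.71 versus control, adjusted p = 0.186 with the block, edgeR). Crhbp, which binds and holds CRH, was at 2.65 and 2.08 CPM (control), 2.87 and 1.80 (PA), and 1.31 and 0.649 (PA + PS2) (log2 -1.27 versus control, adjusted p = 0.134 with the block, edgeR). Both genes had both PA + PS2 libraries below every other library, and both were chosen after their values were seen.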
